A study of Mus musculus with 2 samples.

Results

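Co-stimulatory and checkpoint molecules set how strongly a phagocyte that presents antigen drives or restrains a T cell. To examine how their transcripts were distributed in tumor mononuclear phagocytes (TMPs) with and without *Fcmr*, the receptor that binds the Fc part of IgM, 9 genes were taken by symbol from the 27998 genes listed for both libraries. They were *Cd274*, *Pdcd1lg2*, *Cd80*, *Cd86*, *Cd40*, *Icosl*, *Havcr2*, *Lgals9* and *Sirpa*, and each symbol matched 1 gene. Although the set is named for ligands, *Cd40*, *Havcr2* and *Sirpa* encode receptors that the phagocyte itself carries. Membership rests on the symbol alone.

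The TMPs were sorted as MerTk+ CD64+ cells from B16 melanoma tumors, a transplanted mouse melanoma, grown in C57Bl/6 mice. The *Fcmr*-/- mice lacked the gene in all tissues and the *Fcmr*+/+ mice were littermate controls. Each genotype gave 1 droplet-based 3′ single-cell library, and the number of mice behind a library is not given in the sources used here. Differences between the genotypes therefore had no replicate check, and genotype, mouse and library cannot be told apart.

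After the study's filters on cells, 6352 of 6392 *Fcmr*+/+ barcodes and 7999 of 8017 *Fcmr*-/- barcodes were kept, with 128408544 and 124630621 unique molecular identifiers (UMIs, each standing for 1 captured transcript). The *Fcmr*+/+ cells were deeper, with a median of 17974 UMIs against 12911 in *Fcmr*-/- cells. The 2 libraries shared 73 barcodes, 1.14% of *Fcmr*+/+ and 0.911% of *Fcmr*-/- barcodes. *Fcmr* itself had 7 UMIs in the *Fcmr*+/+ library against 6 in the other, too few to check either genotype. In a list of 9 macrophage genes none was at 0 in either library, and the median log2 ratio between the libraries over that list was 0.01. Levels are given as CPM, the UMIs of a gene per 1000000 UMIs of the same cells, and hold no term for gene length. For log2 ratios, 1 CPM was first added to both levels. The genes of the sort markers moved in opposite directions. *Fcgr1*, which encodes CD64, had 250.4 CPM in the *Fcmr*+/+ and 394.3 CPM in the *Fcmr*-/- library (fold 1.575, interval 1.553 to 1.597). *Mertk* had 62.8 and 48.7 CPM (fold 0.776, interval 0.750 to 0.802). Of the 9 macrophage genes, *Fcgr1* alone was past 1.5-fold. Intervals are exact 95% intervals and cover counting error only.

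As background, the B7 family ligands CD80 and CD86 engage CD28 on T cells to give co-stimulation and engage CTLA-4 to give inhibition. PD-L1, encoded by *Cd274*, and PD-L2, encoded by *Pdcd1lg2*, bind PD-1 and restrain T cells, and PD-L1 is well known to be induced by interferon-γ. ICOS ligand, encoded by *Icosl*, sustains T cells through ICOS, and CD40 licenses antigen-presenting cells when it meets CD40 ligand on helper T cells. TIM-3, encoded by *Havcr2*, is an inhibitory receptor for which galectin-9, encoded by *Lgals9*, is one ligand, and SIRPα, encoded by *Sirpa*, receives the CD47 signal that holds back phagocytosis.

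The PD-1 ligands differed most between the libraries. *Cd274* stood at 63.3 CPM (interval 61.9 to 64.7) in the *Fcmr*+/+ library and 108.7 CPM (interval 106.9 to 110.6) in the *Fcmr*-/- library. Its fold of *Fcmr*-/- over *Fcmr*+/+ was 1.72 (interval 1.67 to 1.77), or 0.77 on the log2 scale. *Pdcd1lg2* was scarce in both, at 1.098 CPM from 141 UMIs and 3.60 CPM from 449 UMIs. The *Pdcd1lg2* fold was 3.28 (interval 2.71 to 3.99). Its transcripts also lay in few cells, since the 1% of cells with most of them held 66.7% of its *Fcmr*+/+ UMIs and 47.2% of its *Fcmr*-/- UMIs, against 8.52% and 8.14% for *Cd274*.

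**Figure D1:**
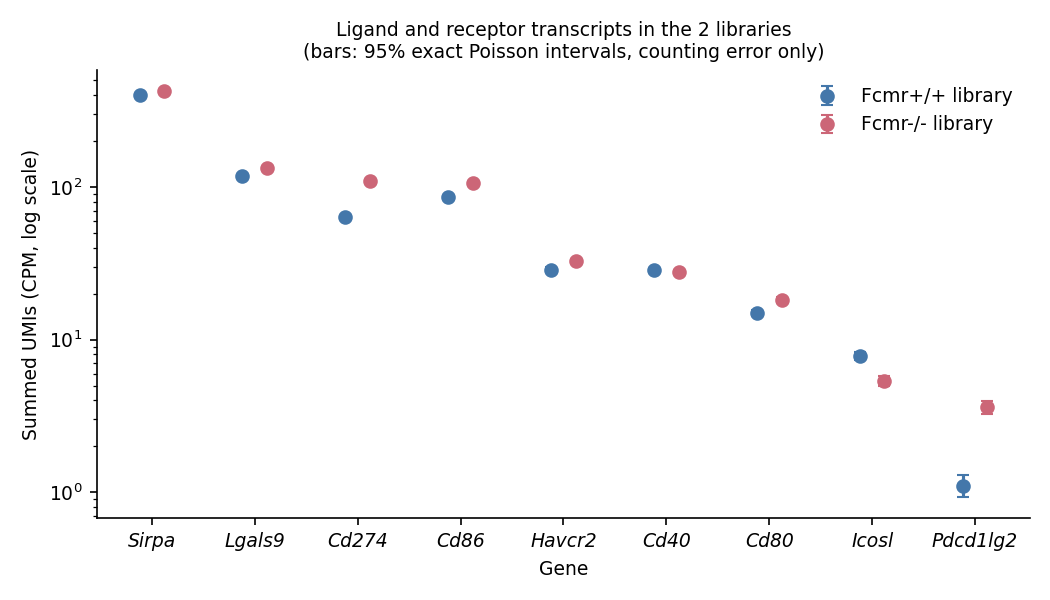
Levels of the 9 genes in the *Fcmr*+/+ (blue) and *Fcmr*-/- (red) libraries, in CPM on a log scale, 1 library per genotype, with bars for exact 95% Poisson intervals. *Cd274* lies at 63.3 and 108.7 CPM and *Pdcd1lg2* at 1.098 and 3.60 CPM, while *Cd40* lies at 28.5 and 27.7 CPM.

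Among the co-stimulatory ligands the differences were smaller. *Cd80* had 14.9 CPM in *Fcmr*+/+ TMPs and 18.2 in *Fcmr*-/- TMPs, a fold of 1.22 (interval 1.15 to 1.30). *Cd86* had 85.7 and 106 CPM, a fold of 1.24 (interval 1.21 to 1.27). *Icosl* went the other way, from 7.82 to 5.37 CPM, with a fold of 0.687 (interval 0.622 to 0.758). *Cd40*, which receives rather than delivers a signal, had 28.5 and 27.7 CPM and a fold whose interval held 1 (0.972, interval 0.927 to 1.02).

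The remaining members were within 1.2-fold. *Havcr2* had 28.8 and 32.6 CPM (fold 1.13, interval 1.08 to 1.18), and its ligand gene *Lgals9* had 117.7 and 133.7 CPM (fold 1.14, interval 1.11 to 1.16). *Sirpa*, the most abundant of the 9 in UMIs, had 403.3 and 424.7 CPM (fold 1.05, interval 1.04 to 1.07). Because *Sirpa* resembles the *Sirpb1* genes in sequence, the counts of all of them are uncertain where a read fits more than 1. The size of this effect was not measured.

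Of the 9 genes, 8 reached 5 CPM in a library, and 1 of these 8, *Cd274*, was higher in *Fcmr*-/- cells by 1.5-fold or more. None of the 8 was lower by that much, and *Pdcd1lg2* stayed under 5 CPM in both libraries. Among all 8701 genes at that level, 2.64% were higher by 1.5-fold or more and 2.17% were lower, so that 1 of 8 is described here without a test. In that ranking 127 genes, 1.46% of the total, had a log2 ratio at or above that of *Cd274*, and 266 genes, 3.06%, had one at or below that of *Icosl*. The median log2 ratio was 0.18 over the 8 genes and 0.00 over all genes at that level.

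Other genes also differed between the 2 libraries. Summed over a list of 9 genes that respond to interferon-γ, the level was 162.7 CPM in *Fcmr*+/+ cells and 710.4 CPM in *Fcmr*-/- cells, and 9 of the 9 were higher by 1.5-fold or more. The list was chosen with earlier results of these data known, so that count is a description only. Among regulators of B7 ligands and of interferon signaling, *Socs1*, a feedback inhibitor of JAK kinases, had 8.64 and 16.0 CPM (log2 ratio 0.82). *Cmtm6*, which protects PD-L1 protein from degradation, had 49.9 and 47.2 CPM. The part of the interferon genes in the *Cd274* difference was not tested.

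Of the T cell receptors for these ligands, *Cd28* had 6.56 CPM from 842 UMIs in the *Fcmr*+/+ library and 7.30 CPM from 910 UMIs in the *Fcmr*-/- library (fold 1.11, interval 1.01 to 1.22). The others were at trace levels. *Ctla4* had 14 UMIs in the *Fcmr*+/+ library and 127 in the *Fcmr*-/- library, *Pdcd1* had 22 and 126, and *Icos* had 21 and 86. Markers of T and NK cells summed to 3.24 CPM and 17.8 CPM over the 10 listed of 11, of which *Ncr1* had 0 UMIs in the *Fcmr*+/+ library and 1 in the *Fcmr*-/- library. At least 2 such markers were found in 5 *Fcmr*+/+ and 40 *Fcmr*-/- cells. Without those cells the *Cd274* log2 ratio was 0.77 and the *Pdcd1lg2* log2 ratio was 1.13, as with them. In cells with at least 2 dendritic cell markers, 85 and 107 cells, lay 6.38% and 8.24% of the *Pdcd1lg2* UMIs and 5.78% and 5.83% of the *Icosl* UMIs of the 2 libraries. Over the 13 dendritic cell markers the summed level was 22.8 and 21.9 CPM, with members moving in opposite directions. *Ccl17*, which also leads cluster 2, had 12.8 and 5.43 CPM, and the other 12 summed to 9.99 and 16.5 CPM, with the interval of the fold above 1 for 7 of them and below 1 for 0. Without the cells that carried at least 2 of these markers the *Pdcd1lg2* log2 ratio was 1.09. The part of other cell types in the *Pdcd1lg2* difference was not tested further.

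*Cd274* and *Pdcd1lg2* are neighbors on mouse chromosome 19. In GRCm38 *Cd274* spans 29367455 to 29388095 and *Pdcd1lg2* spans 29410919 to 29471161, both on the plus strand, with 22823 bases between them. *Cd80* (38455561 to 38496335, plus strand) and *Cd86* (36603869 to 36666081, minus strand) both lie on chromosome 16, and *Lgals9* spans 78962974 to 78984946 on the minus strand of chromosome 11. *Pdcd1lg2* overlaps an antisense gene, *A930007I19Rik*, that the count tables also list, and the sources used here do not state whether counting used strand. Promoter windows of 250 bases before to 50 after the start of transcription were taken from RefSeq on GRCm38.p6, where 6 of the 9 genes had an entry. The windows of the PD-1 ligand pair are shown because both genes were higher in *Fcmr*-/- cells, and that of *Lgals9* because it alone among the 6 held an interferon-type motif. Capitals mark matches, on either strand, to the GAS motif TTCNNNGAA, the interferon-stimulated response element (ISRE, read as GAAA, any 2 bases and GAAA) or the NF-κB consensus.
Cd274, chr19:29367188-29367487, plus strand: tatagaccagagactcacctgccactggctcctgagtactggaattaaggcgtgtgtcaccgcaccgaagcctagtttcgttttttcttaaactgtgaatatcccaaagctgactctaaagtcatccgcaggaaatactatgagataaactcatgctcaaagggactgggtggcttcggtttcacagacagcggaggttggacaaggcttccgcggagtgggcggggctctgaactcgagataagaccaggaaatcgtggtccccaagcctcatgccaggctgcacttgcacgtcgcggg
Pdcd1lg2, chr19:29410669-29410968, plus strand: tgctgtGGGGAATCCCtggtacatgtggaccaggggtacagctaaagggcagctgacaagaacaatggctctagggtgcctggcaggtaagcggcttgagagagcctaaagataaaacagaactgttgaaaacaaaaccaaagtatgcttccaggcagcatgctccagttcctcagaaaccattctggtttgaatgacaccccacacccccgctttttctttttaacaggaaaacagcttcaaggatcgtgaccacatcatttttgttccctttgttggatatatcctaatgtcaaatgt
Lgals9, chr11:78984875-78985174, minus strand: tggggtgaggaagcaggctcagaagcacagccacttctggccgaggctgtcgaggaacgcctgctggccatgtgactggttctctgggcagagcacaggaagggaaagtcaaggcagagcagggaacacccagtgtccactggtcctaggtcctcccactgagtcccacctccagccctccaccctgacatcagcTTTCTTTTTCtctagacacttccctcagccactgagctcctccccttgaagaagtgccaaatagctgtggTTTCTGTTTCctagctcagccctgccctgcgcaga

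The *Cd274* window held none of these 3 motifs, the *Pdcd1lg2* window held 1 NF-κB match, and the *Lgals9* window held 2 ISRE matches on its reverse strand. The letters ACGTG, the core of hypoxia response elements, were found in the *Cd274* and *Havcr2* windows, and the AP-1 letters TGANTCA in the *Cd80* and *Havcr2* windows. Of 32851 promoter windows of the same length, 8.30% held the GAS letters, 3.44% the ISRE letters, 4.51% the NF-κB letters, 19.6% ACGTG and 7.81% TGANTCA. A match is a description of letters in this window, and nothing about a factor was read from its absence.

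To relate the genes to macrophage states, cells of both libraries were clustered together with the 9 genes left out of the clustering, which gave 10 clusters numbered by size. Cluster 1, led by *Iigp1*, *Serpina3g*, *Cxcl9* and *Gbp4*, was called interferon-γ-high-like from 4 markers among its leading 10 genes. Of its 2343 cells 96.2% were *Fcmr*-/- cells, and no other cluster drew as much as 80% from 1 library, so that it may be that library rather than a state. Cluster 9, led by *Rsad2* and *Ifit* genes, was called type I interferon-high-like, and cluster 4, led by *Csf3*, *Ppbp* and *Cxcl3*, was called inflammatory macrophage-like. The other clusters had too few fixed markers for a name, apart from cluster 5. It was left unnamed because its 4 leading markers were hemoglobin genes of red blood cells and not of a macrophage state. Yet *Hbb-bs* was found in only 0.817% (*Fcmr*+/+) and 0.894% (*Fcmr*-/-) of cluster 5 cells thinned to equal depth (below). The list of hypoxic macrophage genes had a median log2 ratio of 1.52 in cluster 5 over the other clusters, the highest of the 10 clusters. Cluster 9 was next with 0.94. The interferon-γ list also stood high in cluster 9, with a median log2 ratio of 1.63, below only the 2.18 of cluster 1. The name of cluster 9 therefore does not separate the 2 interferon lists. Cluster 2 was led by *Ccl17*, *Cd209a* and *Il1r2*, cluster 3 by *Tfrc*, *Gpr34* and *Marco*, cluster 5 by hemoglobin genes, *Ptges*, *Inhba* and *Nos2*, and cluster 6 by the mitosis genes *Cenpf*, *Nusap1* and *Prc1*. Cluster 7 was led by *Amica1*, *Zmynd15* and *Acp5*, cluster 8 by *Plpp3*, *Mfge8* and *Gpnmb*, and cluster 10 by *Adm*, *Rragd* and the melanocyte genes *Dct* and *Mlana*. By the same list medians, cluster 2 was highest of the 10 for monocyte (2.04) and MHC class II-high macrophage genes (2.01). Cluster 3 was highest for *Mrc1*-high macrophage genes (1.06) and cluster 8 for *Arg1*-high macrophage genes (1.1).

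*Cd274* varied widely between states. Over both libraries its level in cluster 9, the highest, was 7.82 times that in cluster 3, the lowest. Cluster 9 stood at 245.4 CPM in *Fcmr*+/+ and 251.6 CPM in *Fcmr*-/- cells, and cluster 3 at 32.9 and 28.5 CPM. Cluster 5 came second with 143.3 and 207.8 CPM, ahead of cluster 1 with 100.6 and 127.5 CPM. Over both libraries pooled, the order from high to low was 9, 5, 1, 10, 2, 4, 8, 7, 6 and 3. The counting intervals of neighbors overlapped in 2 of the 9 steps, between clusters 2 and 4 and between clusters 7 and 6. The lower part of this order differed by library. In *Fcmr*+/+ cells cluster 7 (54.7 CPM) lay above cluster 8 (43.0 CPM). In *Fcmr*-/- cells cluster 6 (62.5 CPM) lay above cluster 7 (43.2 CPM). The median cell of clusters 9 and 5 was shallow, with 8834 and 9087 UMIs, and the level is a share of UMIs.

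**Figure D2:**
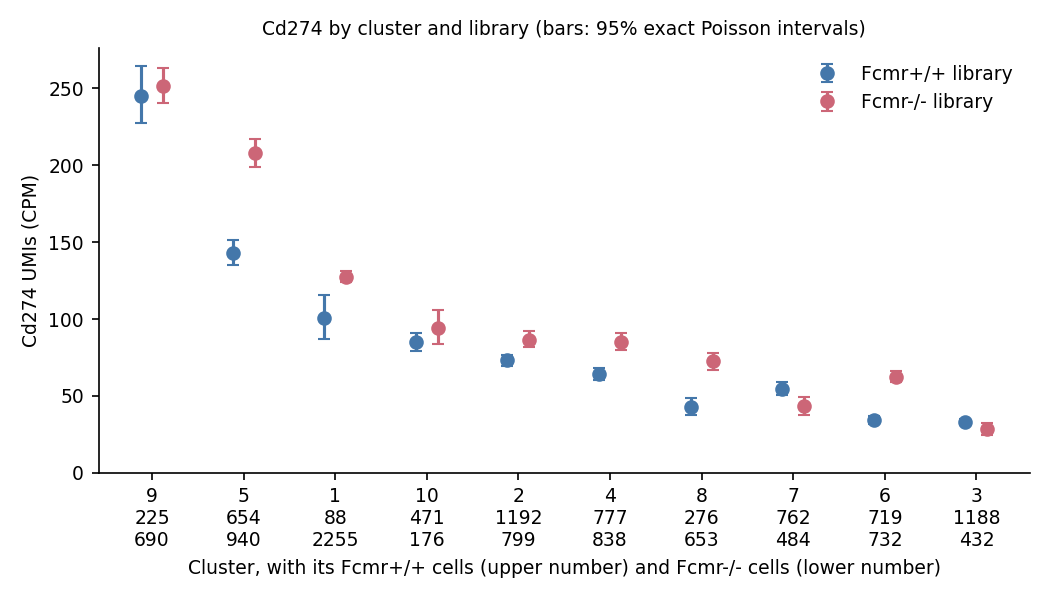
*Cd274* in each of the 10 clusters, ordered by its level over both libraries, in CPM with exact 95% Poisson intervals for *Fcmr*+/+ (blue) and *Fcmr*-/- (red) cells. The 2 libraries lie together in cluster 9 at 245.4 and 251.6 CPM and apart in cluster 5 at 143.3 and 207.8 CPM, and in cluster 7 the *Fcmr*+/+ point is the higher one.

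Within clusters, the genotypes differed less than the 1.72-fold of the whole libraries in 9 of 10. *Cd274* was higher in *Fcmr*-/- cells in 8 of 10 clusters, with an interval of the fold above 1 in 6 of them. The fold was highest in cluster 6, from 34.4 to 62.5 CPM (1.82, interval 1.66 to 2.00), and next in cluster 8, from 43.0 to 72.5 CPM (1.69, interval 1.45 to 1.96). In cluster 9 it was 1.03 (interval 0.939 to 1.12). In cluster 7 it was below 1, from 54.7 to 43.2 CPM (0.790, interval 0.674 to 0.923).

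The mix of states also differed between the libraries. Cluster 1 held 1.39% of *Fcmr*+/+ and 28.2% of *Fcmr*-/- cells, and cluster 9 held 3.54% and 8.63%. Cluster 3, with the least *Cd274*, held 18.7% and 5.40%. When each cluster was given the same share in both libraries, that of the pooled cells, the *Cd274* fold fell to 1.24, or 0.30 on the log2 scale, and none of the 9 genes reached 1.5-fold. With cluster 1 left out as well, where the *Fcmr*+/+ level rested on 88 cells, the *Cd274* fold was 1.23 and the *Pdcd1lg2* fold was 2.31 instead of the 1.29 with cluster 1. That last setting was chosen after seeing the data. Fixed shares weight clusters by cells, whereas the fold over whole libraries weights them by UMIs. For all 9 genes the comparison of the 2 folds therefore also holds this change of weights. As the mean CPM per cell, with cells as sampled, the *Cd274* log2 ratio was 0.73.

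Fixed shares of states moved other members too. The *Cd40* fold went from 0.972 to 0.792, and *Cd86* from 1.24 to 1.07. *Cd80* went from 1.22 to 1.31, *Icosl* from 0.687 to 0.773 and *Sirpa* from 1.05 to 1.13. *Havcr2* and *Lgals9* stayed between 1.05 and 1.14. *Cd40* thus had nearly the same level in the 2 whole libraries and a lower one in *Fcmr*-/- cells at fixed state shares.

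**Figure D3:**
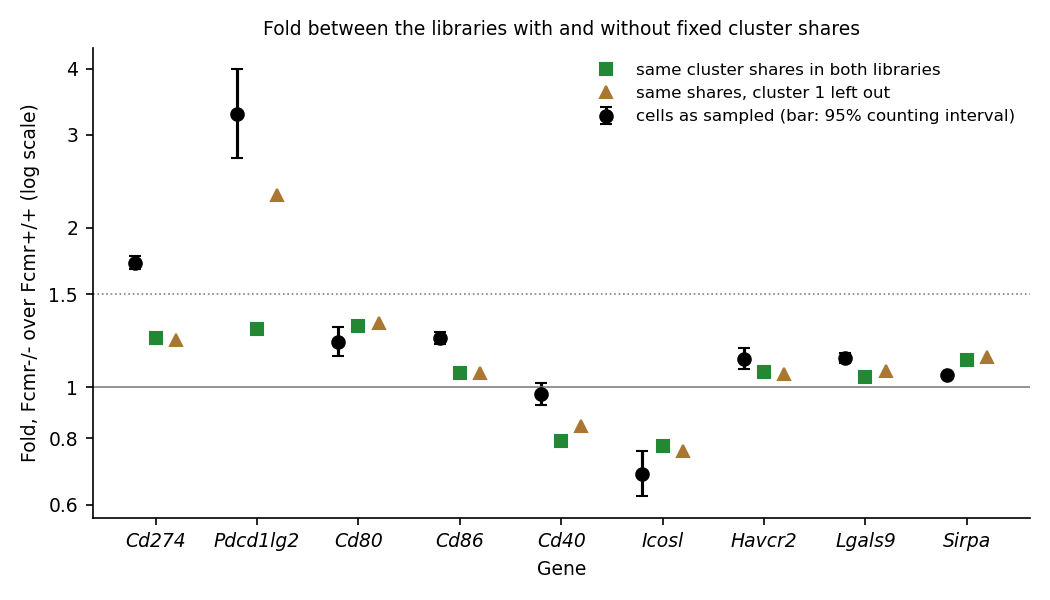
Fold of *Fcmr*-/- over *Fcmr*+/+ for each gene on a log scale, over the cells as sampled (black, with 95% counting intervals), with the same cluster shares in both libraries (green) and with cluster 1 also left out (brown). The dotted line is 1.5-fold. *Cd274* moves from 1.72 to 1.24 and 1.23, and *Cd40* from 0.972 to 0.792 and 0.847.

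*Cd40* was lower in *Fcmr*-/- cells in 8 of 10 clusters. Its fold lay below 1 beyond the counting interval in 3 and above 1 in 0. The 3 were cluster 4, from 32.02 to 18.2 CPM (0.567, interval 0.478 to 0.670), cluster 1, from 51.9 to 32.9 CPM (0.634, interval 0.518 to 0.785), and cluster 3, from 27.8 to 20.7 CPM (0.742, interval 0.623 to 0.880). *Cd40* was highest in cluster 9 in both libraries, at 66.2 and 56.1 CPM. Of 13 genes of CD40 signaling, 0 were past 1.5-fold in either direction. Over all genes at 5 CPM these shares were 2.64% higher and 2.17% lower, so the 0 was not read as a result. The median log2 ratio of the 13 between the libraries was -0.15.

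*Icosl* was lower in *Fcmr*-/- cells in 10 of 10 clusters, with an interval below 1 in clusters 4, 6 and 10. In cluster 4 it went from 5.11 to 2.63 CPM (0.515, interval 0.323 to 0.802), and in cluster 10 from 63 to 4 UMIs, or 5.95 to 1.37 CPM (0.231, interval 0.0610 to 0.621). Cluster 2 had the highest *Icosl* level, 11.5 and 9.25 CPM.

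*Cd80* and *Cd86* encode ligands of the same receptors, and they did not follow each other across states in full. *Cd80* was highest in cluster 2, at 28.1 and 32.1 CPM, and *Cd86* in cluster 9, at 161.2 and 178.3 CPM, with cluster 2 next at 137.2 and 153.5 CPM. Both were low in cluster 8, where *Cd86* had 32.7 and 36.8 CPM. *Cd80* was higher in *Fcmr*-/- cells in 10 of 10 clusters, past the counting interval in 5, and by a fold of only 1.005 in cluster 10. The share of all genes with the same sign in every cluster is not given here for *Cd80* or *Icosl*. The *Cd80* fold was highest in cluster 7, from 11.2 to 20.3 CPM (1.82, interval 1.39 to 2.39), and in cluster 5, from 17.0 to 30.01 CPM (1.77, interval 1.44 to 2.18). *Cd86* was past the interval upward in clusters 2 and 6 and downward in cluster 5.

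*Pdcd1lg2* had fewer than 10 UMIs per library in clusters 3, 7, 8 and 10. Over both libraries its level was 5.55 CPM in cluster 1, 5.12 CPM in cluster 9 and 4.46 CPM in cluster 2, with overlapping counting intervals. In cluster 1 it had 8.82 CPM from 17 UMIs in *Fcmr*+/+ and 5.40 CPM from 223 UMIs in *Fcmr*-/- cells. Cluster 9 had 2.16 CPM from 6 UMIs and 6.23 CPM from 46 UMIs, and cluster 2 had 2.99 CPM from 68 UMIs and 7.25 CPM from 87 UMIs. The interval of its fold was above 1 in clusters 2, 4, 6 and 9. Its fold in cluster 1 was 0.612 (interval 0.374 to 1.07).

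*Havcr2* and *Lgals9* were both highest in cluster 9, at 45.7 and 43.5 CPM and at 201.1 and 226 CPM. *Havcr2* was lowest in cluster 4 and *Lgals9* in cluster 5, where it had 79.4 and 88.7 CPM. *Sirpa* ran against *Cd274*. It was highest in cluster 3, at 517.3 and 619.9 CPM, and lowest in cluster 5, at 220.7 and 281.9 CPM, and cluster 9, at 223.5 and 345.6 CPM. *Sirpa* was higher in *Fcmr*-/- cells in 9 of 10 clusters, with an interval above 1 in 7, and its fold was highest in cluster 9 (1.55, interval 1.42 to 1.69).

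**Figure D4:**
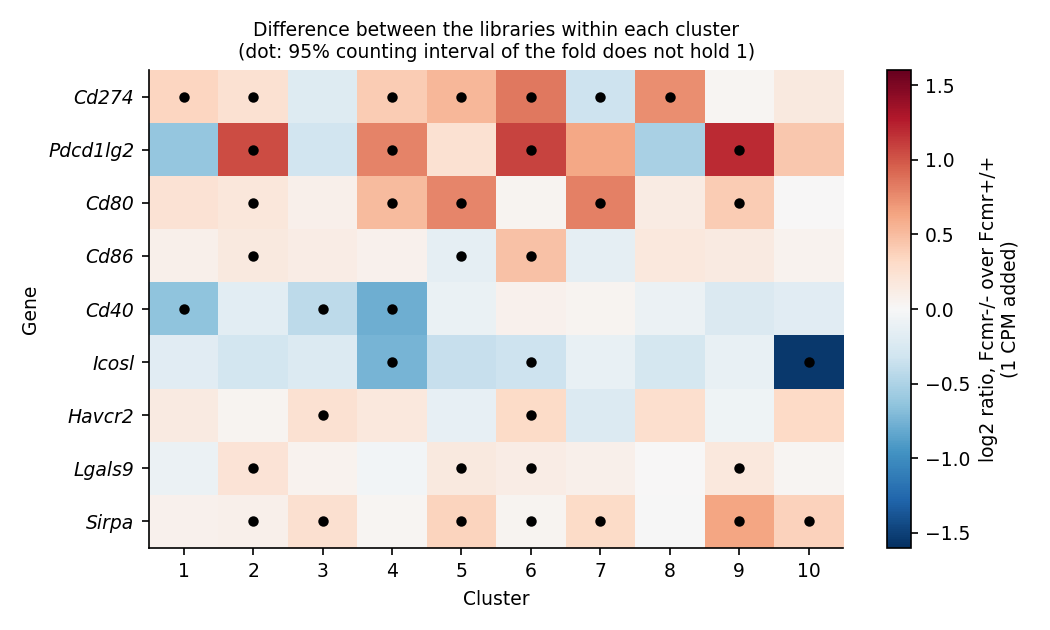
The log2 ratio of *Fcmr*-/- over *Fcmr*+/+ for the 9 genes in each cluster, with red for higher and blue for lower in *Fcmr*-/- cells, and a dot where the 95% counting interval of the fold does not hold 1. By this ratio *Icosl* is lower in 10 of 10 clusters and *Cd80* higher in 10 of 10, while *Cd274* and *Cd86* carry dots of both signs.

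Likeness over the 20 groups of cluster and library was measured as Pearson's r of log2 levels and is a description, because the groups share 2 libraries and differ in depth. *Cd274* and *Sirpa* had an r of -0.75, *Cd40* and *Lgals9* 0.81, and *Cd80* and *Cd86* 0.75. Of 5412 genes compared, those most like *Lgals9* were *Parp12*, *Dhx58* and *Eif2ak2* (r 0.97, 0.97 and 0.96), each known to be induced by interferon. *Cd274* was most like *5730508B09Rik* (0.92), *Inhba* (0.91) and *Eapp* (0.89), *Cd86* most like *Plac8* (0.95), *Ms4a4c* (0.92) and *Ifitm3* (0.90), and *Cd40* most like *Irf1* (0.88), *Phf11d* (0.88) and *Cd164* (0.86). *Cd80* was most like *Vcan*, *Hif1a* and *Lrrfip1* (0.94, 0.93 and 0.93), *Sirpa* most like *Mpv17*, *Adgre1* and *Arhgap19* (0.95, 0.94 and 0.94), and *Pdcd1lg2* most like *Bcl2a1a*, *Zbp1* and *Scimp* (0.91, 0.87 and 0.86). With 0 to 7 UMIs per library in clusters 3, 7, 8 and 10, the *Pdcd1lg2* values rest on few UMIs. *Icosl* was most like *Git2*, *Lifr* and *Ankrd11* (0.88, 0.84 and 0.84), and *Havcr2* most like *Frmd4a*, *Svbp* and *Prpf38b* (0.85, 0.84 and 0.81).

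To count cells, each cell was thinned at random to 6643 UMIs, so that 151 shallower *Fcmr*+/+ cells and 800 shallower *Fcmr*-/- cells dropped out. The loss was uneven over clusters. In cluster 5, 612 of 654 *Fcmr*+/+ and 671 of 940 *Fcmr*-/- cells were left, and in cluster 9, 210 of 225 and 519 of 690. Shares over a whole library are those of the cells left. The share of thinned cells with a *Cd274* UMI was 30.7% (interval 29.5 to 31.8) for *Fcmr*+/+ and 42.3% (interval 41.1 to 43.4) for *Fcmr*-/-. Before thinning the shares were 53.4% and 61.0%. *Cd86* was found in 40.1% and 45.0% of thinned cells, *Cd80* in 9.77% and 11.6%, and *Pdcd1lg2* in 0.790% and 1.85%. *Cd40* was found in 15.6% and 14.9%, *Icosl* in 5.05% and 3.25%, *Havcr2* in 17.0% and 18.1%, *Lgals9* in 51.3% and 54.6%, and *Sirpa* in 86.9% and 89.6%. The median thinned cell had a UMI of 2 of the 9 genes in the *Fcmr*+/+ library and of 3 in the *Fcmr*-/- library, and 5 or more of them were found in 5.27% and 7.86% of cells.

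No cell type that lacks the 9 genes was available in this sort to measure free RNA. The melanocyte gene *Dct* was found in 7.82% and 9.96% of thinned cells and the erythroid gene *Hbb-bs* in 0.355% and 0.542%. Over 7 melanocyte genes the summed level was 78.1 and 108.2 CPM. The shares of *Icosl* and *Pdcd1lg2* lay below that of *Dct* and were not read as shares of expressing cells. In thinned *Fcmr*+/+ cells the *Icosl* share ran from 1.43% in cluster 9 to 8.31% in cluster 2. Unlike its CPM, the *Icosl* share was higher in *Fcmr*-/- cells in clusters 9 (1.43% and 3.47%) and 5 (2.61% and 2.98%), and lower in the others. The *Cd80* share was lower in *Fcmr*-/- cells in clusters 6 (8.25% and 7.23%) and 3 (6.10% and 5.70%), and higher in the others. In these named clusters the counting intervals of the 2 libraries overlapped. The *Cd80* share also lay below that of *Dct* in both libraries in clusters 3 (*Dct* 6.69% and 5.94%), 8 and 10. It did so in 1 library in clusters 5, 6 and 7. The *Cd80* shares of those clusters were not read as shares of expressing cells either.

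*Cd274* lay together with a co-stimulatory ligand about as often as the shares of each would give. *Cd274* together with *Cd80* or *Cd86* took 14.3% of thinned *Fcmr*+/+ cells (interval 13.4 to 15.2) and, at 22.8%, more of the thinned *Fcmr*-/- cells (interval 21.9 to 23.8). The products of the shares were 13.7% and 21.4%, and the ratios of observed to expected cells 1.04 (interval 0.975 to 1.11) and 1.07 (interval 1.01 to 1.12), or 1.01 and 1.02 with expected counts summed over clusters. These are Poisson intervals of the observed cells with the expected cells held fixed. They are wider than the 2 shares allow, so an interval that holds 1 was not read as a lack of excess. *Cd274* without *Cd80* or *Cd86* was found in 16.4% and 19.5%, *Cd80* or *Cd86* without *Cd274* in 30.4% and 27.8%, and none of the 3 in 39.0% and 29.9%. In cluster 9 the combination was found in 43.3% and 47.4% of cells, and in cluster 3 in 6.86% and 5.94%. Cells with *Cd80* or *Cd86* alone were most frequent in cluster 2, at 43.3% and 45.1%.

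**Figure D5:**
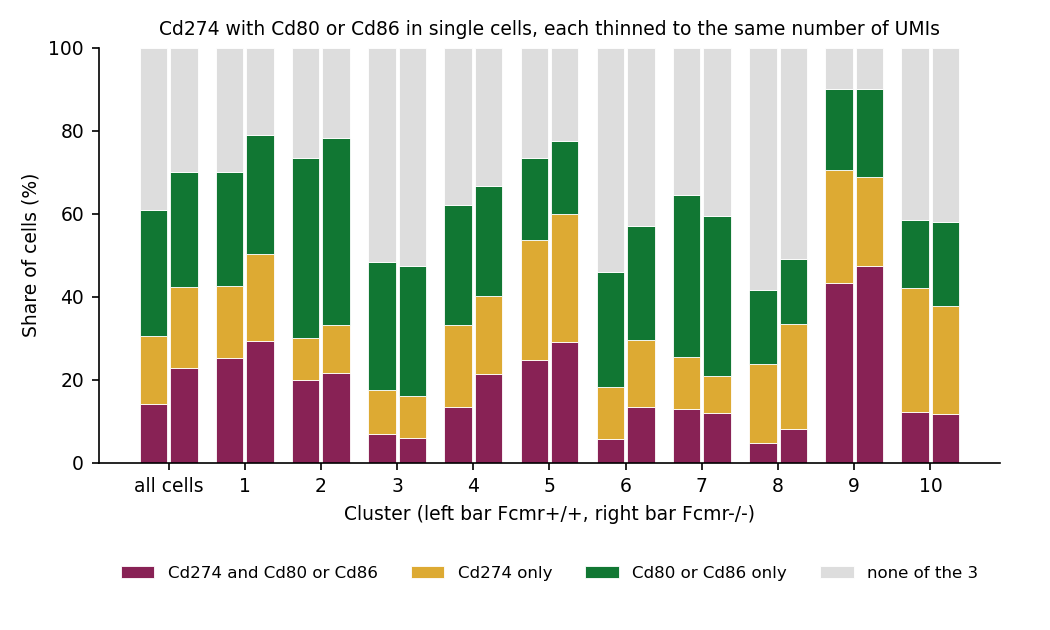
Shares of thinned cells with UMIs of *Cd274* and of *Cd80* or *Cd86* in all cells and in each cluster, with the left bar for *Fcmr*+/+ and the right bar for *Fcmr*-/- cells, summing to 100%. The combination (purple) takes 14.3% and 22.8% of all cells and 43.3% and 47.4% of cluster 9.

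The balance of *Cd274* to *Cd86* UMIs differed by state as well. Over whole libraries it was 0.739 (interval 0.718 to 0.760) in *Fcmr*+/+ and 1.03 (interval 1.00 to 1.05) in *Fcmr*-/- cells. It was 1.45 and 2.33 in cluster 5, 1.52 and 1.41 in cluster 9, and 0.534 and 0.565 in cluster 2. Cluster 2 thus carried about the same balance in both libraries, and the intervals of cluster 5 (1.33 to 1.58 and 2.15 to 2.54) did not overlap.

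Across the 36 pairs of the 9 genes, detection of both in a cell was close to the product of the 2 shares. Among pairs with at least 20 expected cells, the median ratio of observed to expected was 1.04 in each library (30 and 33 pairs). The interval lay above 1 for 4 *Fcmr*+/+ and 7 *Fcmr*-/- pairs and below 1 for 0. Each interval is the Poisson interval of the observed cells over an expected number held fixed. For genes found in many cells it is wider than the 2 shares allow. The 0 below 1 was therefore not read as a result. *Sirpa* was found in 86.9% and 89.6% of thinned cells, which leaves the ratios of its pairs little room to rise. *Cd80* with *Cd86* was above 1 in both libraries, with 323 cells against 242.8 expected in *Fcmr*+/+ cells (1.33, interval 1.19 to 1.48) and 427 against 375.6 in *Fcmr*-/- cells (1.14, interval 1.03 to 1.25). With expected counts summed over clusters, these ratios were 1.201 and 1.08. In *Fcmr*-/- cells *Cd274* with *Pdcd1lg2* had 79 cells against 56.2 expected (1.41, interval 1.11 to 1.75). In *Fcmr*+/+ cells that pair had 17 cells against 15.0 expected (1.13, interval 0.659 to 1.81). With expected counts summed over clusters, the ratios of this pair were 1.276 in *Fcmr*-/- and 1.001 in *Fcmr*+/+ cells. It rests on the *Pdcd1lg2* shares, which were not read as shares of expressing cells.

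Related gene lists were read against the same 1.5-fold limit, past which 2.64% of all genes at 5 CPM were higher and 2.17% lower. Of 5 receptors and partners of the members at that level, 0 were past it, with *Cd47* at 352.8 and 354.2 CPM. Of 16 other B7, butyrophilin, nectin and checkpoint genes 3 were higher and 0 lower. They were *H2-T23*, a nonclassical class I molecule that engages NKG2A (97.7 and 224 CPM, log2 ratio 1.19), *Cd200*, a ligand that restrains myeloid cells (6.48 and 17.7 CPM, log2 ratio 1.32), and *Pilra*, an inhibitory receptor (30.7 and 47.2 CPM, log2 ratio 0.60). Of 8 genes of SIRPα signaling and its relatives 3 were higher and 0 lower, *Ptpn6*, which encodes the phosphatase SHP-1 (118.3 and 184.9 CPM, log2 ratio 0.64), *Sirpb1b* (log2 ratio 0.64) and *Sirpb1c* (log2 ratio 0.58). In the TNF superfamily 3 genes reached 5 CPM. The 4-1BB ligand gene *Tnfsf9* was lower, from 189.3 to 92.9 CPM (log2 ratio -1.02), and its receptor gene *Tnfrsf9* was higher, from 10.8 to 17.0 CPM (log2 ratio 0.61). Over the 3 the median log2 ratio was -0.36.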

How the data were processed

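TMPs from B16 tumors gave 1 single-cell library per genotype, and the mapping to genotype was taken from the submitters' labels. Cell Ranger had mapped the reads to GRCm38, and the deposited values are its UMI counts, which the authors left without normalization. The submitters' notes also name Seurat 2.1.0. The 9 genes and all gene lists were chosen with earlier results of these data known. All members are named, as are the 3 genes most like each. Genes past 1.5-fold with at least 5 CPM in a library are named for 5 lists. These hold receptors and partners, other checkpoint genes, the TNF superfamily, CD40 signaling and SIRPα signaling. A few others were chosen after their values were seen, and markers of cell types and states are named only in part. Part of the list of B7 and interferon regulators is not reported here.

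The study's filters were applied, namely 200 to 7000 genes and at most 30% mitochondrial UMIs per cell and genes found in at least 3 cells. UMIs were summed per library, or per cluster and library, and given as CPM, and 1 CPM was added before log2 ratios. Library totals were 131062107 (*Fcmr*+/+) and 125802196 (*Fcmr*-/-) UMIs as deposited. Genes with at least 5 CPM in a library entered counts past 1.5-fold. With 1 library per genotype no test was run. Poisson, Clopper-Pearson and conditional binomial intervals at 95% cover counting error only.

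Cells were clustered in Seurat 5.3.0 (R 4.3.3) on 1336 variable genes from which 6 members had been removed, with 10 principal components, 30 neighbors and a resolution of 0.8. A cluster took a name where at least 3 of a list's markers were among its 10 leading genes and no other list had more. Thinning kept 6201 and 7199 cells. Doublets were not called. Instead, the 5% of cells with the most UMIs were left out as an alternative. Calculations used Python 3.11.15, numpy 2.4.6 and scipy 1.17.1 and were tested on simulated data. Alternatives covered scaling (with edgeR 4.0.16 for TMM factors on the summed counts), pseudocounts, cell filters, thinning, clustering, state shares and the CPM limit. Positions came from GENCODE M21 on GRCm38 and promoters from RefSeq on GRCm38.p6.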

Additional observations from a re-analysis of the deposited data

Results flagged for a closer look

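*Cd274* and *Cd86* were each higher in *Fcmr*-/- cells in some clusters and lower in another, beyond the counting intervals on both sides. With 1 library per genotype, these differences between clusters were not tested. The *Cd274* fold of *Fcmr*-/- over *Fcmr*+/+ was 0.790 in cluster 7, against 1.27 in cluster 1, 1.18 in cluster 2, 1.33 in cluster 4, 1.45 in cluster 5, 1.82 in cluster 6 and 1.69 in cluster 8. The *Cd86* fold was 0.901 in cluster 5, against 1.12 in cluster 2 and 1.39 in cluster 6. In cluster 5 *Cd274* and *Cd80* (fold 1.77) were thus higher in *Fcmr*-/- cells while *Cd86* was lower.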

How the results depend on the processing

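The *Cd274* log2 ratio of 0.77 stayed above 0 under 14 of 14 alternatives. It was 0.73 as the mean CPM per cell, 0.66 in thinned cells, 0.69 with at most 5000 genes per cell, 0.66 without cluster 1, 0.30 with the same state shares in both libraries, and 0.295 with those shares and without cluster 1. With no CPM limit, 2 of the 9 members were past 1.5-fold, where 1589 of 16061 genes were higher and 1998 lower. The member count was 0 with the same state shares. It was 1 with those shares and without cluster 1, a setting added after seeing the data. *Cd40* had a log2 ratio between -0.33 and -0.02 over the same 14 alternatives. The ratio of the highest to the lowest cluster for *Cd274* was 6.88 with the members kept among the variable genes, 4.19 at a resolution of 0.4 and 9.53 at 1.2. Without thinning, the difference in share of cells for *Cd274* was 7.56 instead of 11.6 percentage points, and it reversed to -1.89 for *Cd86*, -3.64 for *Lgals9* and -0.38 for *Sirpa*. For *Havcr2* it changed sign as well, from 1.12 to -3.62. *Fcmr*+/+ cells were the deeper ones. Pairs found together at 1.1 times the expected number or more in both libraries numbered 7, with no minimum of expected cells. Of these, only *Cd80* with *Cd86* had a Poisson interval, with the expected number held fixed, above 1 in both libraries. The number of pairs was 1 with expected counts within clusters and 13 without thinning. The 1 pair left within clusters was not *Cd80* with *Cd86*, whose ratios there were 1.201 (*Fcmr*+/+) and 1.08 (*Fcmr*-/-). Of all genes, 230 were higher and 189 lower by 1.5-fold, against 136 and 89 with at least 20 CPM and 1589 and 1998 with no limit. The causes of these shifts were not tested. Depth limited *Pdcd1lg2* and *Icosl* most, with 141 and 669 UMIs in the library where each was rarer. No paired analysis was possible because each genotype had 1 library and no test was run.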
